A study of Mus musculus with 18 samples.

Results

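The tubulin isotypes described here are the alpha genes Tuba1a, Tuba1b, Tuba1c, Tuba4a and Tuba8 and the beta genes Tubb2a, Tubb2b, Tubb4b, Tubb5 and Tubb6. They were taken by gene symbol from the deposited expression values, and each of the 10 had 1 feature among the 23111 named genes. Livers of adult male C57Bl/6N mice were measured after 2, 4, 6, 8 or 10 weeks of carbon tetrachloride (CCl4), injected into the peritoneum 2 times a week (1.6 g/kg, olive oil as vehicle), and compared with livers of control mice. Each of the 6 groups had 3 mice and 1 Affymetrix Mouse Gene 2.0 ST array per mouse, with RNA from the right liver lobe. The treated mice were 12, 14, 16, 18 and 20 weeks old and the control mice 20 weeks old, so that age and weeks of CCl4 cannot be told apart among the treated groups. Only the mice of week 10 matched the controls in age. At the other weeks, and over all weeks together, a difference from control cannot be told apart from one of age. The sources differ on the controls, which are called oil-treated in some places and untreated in another, and the labels place them at week 10. Values are log2 RMA intensities, in which 1 unit is a doubling of signal.

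Microtubules are built from heterodimers of alpha and beta tubulin, and several genes encode near-identical forms of each. Cells rebuild the microtubule array into a spindle when they divide, and cells that change shape or migrate remodel it as well. Tubulin mRNA is also held in check by its own product, since free tubulin dimers trigger decay of the mRNAs being translated. In the liver CCl4 is turned into a toxic radical by Cyp2e1 in hepatocytes around the central vein, surviving hepatocytes re-enter the cell cycle, and stellate cells and macrophages respond to the damage. The question was which isotypes followed the injury and which followed the cell cycle genes.

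The arrays carried the markers of liver on every sample. Albumin (Alb) was at 14.12 on all arrays, the top of the scale, and the transport protein gene Ttr lay between 13.66 and 13.88 in CCl4 livers and between 13.66 and 13.69 in control livers. Replicates 1 and 2 of week 6 were nearly alike, with an SD of their log2 differences of 0.143 over 500 variable genes, whereas the 17 other within-group pairs had SDs of 0.354 to 0.852. They were counted as 1 sample, which left 17 samples and n = 2 at week 6. Replicate 2 of week 10 stood apart in some pancreas genes, with Ctrb1 at 7.67 against at most 5.07 on the other arrays and Cpb1 at 6.42 against at most 3.93. Cela3b was at 4.73 against at most 4.34, and Prss2, at 3.91 against at most 3.92, did not stand apart. The paper states that mice were kept 3 to a cage, and each group had 3 mice, so a group may have shared 1 cage. Which mice shared a cage is not given, so an effect of cage cannot be told apart from one of group. The p-values measure the spread between these mice and take no account of cages.

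Upstream sequence was at hand for 8 of the 10 genes, from RefSeq on build GRCm38.p6. The 250 bases before the start site are shown for Tubb2a and Tubb5, which were called higher at week 6, and for Tubb4b, the gene with the most motif matches. Capitals mark TTTGAA (the cell cycle homology region), CCAAT (the CCAAT box) and TATAAA (the TATA box), each searched on both strands. Each sequence reads 5′ to 3′ toward the gene. Tubb2a lies at chr13:34078009-34078258, Tubb5 at chr17:35838302-35838551 and Tubb4b at chr2:25224703-25224952, each on the minus strand.
Tubb2a: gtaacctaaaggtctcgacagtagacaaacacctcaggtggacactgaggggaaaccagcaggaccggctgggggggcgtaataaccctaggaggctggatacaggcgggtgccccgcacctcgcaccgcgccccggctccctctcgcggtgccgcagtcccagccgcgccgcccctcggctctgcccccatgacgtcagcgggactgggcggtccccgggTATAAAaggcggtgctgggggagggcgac
Tubb5: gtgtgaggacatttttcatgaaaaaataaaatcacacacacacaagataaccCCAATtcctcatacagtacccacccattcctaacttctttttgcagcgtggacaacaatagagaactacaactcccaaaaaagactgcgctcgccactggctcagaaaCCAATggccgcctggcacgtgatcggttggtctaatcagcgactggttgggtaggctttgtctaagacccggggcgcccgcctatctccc
Tubb4b: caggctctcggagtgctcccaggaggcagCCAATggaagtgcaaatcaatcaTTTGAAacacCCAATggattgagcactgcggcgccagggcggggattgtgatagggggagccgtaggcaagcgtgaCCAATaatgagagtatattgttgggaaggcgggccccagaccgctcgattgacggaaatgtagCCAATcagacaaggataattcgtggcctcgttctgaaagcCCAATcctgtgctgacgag

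The stretches differed in their core letters. Tubb2a had a TATA box 29 bases before the start, a motif found in 12.4% of 32851 promoters of the same length, and no CCAAT box. It also held 2 GC boxes (GGGCGG), at 81 and 43 bases, and a GC box was found in 32.7% of promoters. Tubb5 had CCAAT boxes at 198 and 90 bases and no TATA box, and at least 2 CCAAT boxes were found in 10.1% of promoters. Tubb4b had 5 CCAAT boxes, at 221, 188, 122, 59 and 19 bases, a number reached by 0.213% of promoters. It was the only one of the 8 genes with TTTGAA, at 198 bases, a motif of 16% of promoters, and it had a GC box at 162 bases. The AP-1 letters TGANTCA, found in 6.75% of promoters, occurred in none of the 8 stretches. No 2 matches overlapped, and a match of letters is a description, not a site.

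Tubb2a had the widest range of the 10 genes on the log2 scale. Tubb2a encodes a class II beta tubulin best known from neurons. Its control livers had 5.30, 5.24 and 5.45. After 2 weeks its livers had 7.09, 8.39 and 6.34, and after 4 weeks 5.72, 5.27 and 7.07. At both weeks the 3 mice of a group lay far apart, and 1 liver of week 4 was within the control range. After 6 weeks the values were 8.34, 8.23 and 8.71, after 8 weeks 7.41, 6.57 and 6.88, and after 10 weeks 7.84, 7.93 and 6.29. Thus 14 of 15 CCl4 arrays were above the highest control. For this count and the like ones of other isotypes below, the share over all genes was not counted. The log2 change against control was 1.94 at week 2 (SE 0.563, adjusted p = 0.0935), 0.69 at week 4 (SE 0.563, adjusted p = 0.676), 3.16 at week 6 (SE 0.63, adjusted p = 0.00795), 1.62 at week 8 (SE 0.563, adjusted p = 0.188) and 2.02 at week 10 (SE 0.563, adjusted p = 0.0573), by limma adjusted over all tested genes. Week 6 was an 8.95-fold difference. Week 4 stood lowest among the treated weeks, and the direction was upward at each.

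Tubb6, a class V beta tubulin found in many tissues, had a similar order of weeks up to week 6. Control livers had 6.00, 5.17 and 5.37. Week 2 livers had 7.28, 7.70 and 5.71, and week 4 livers 6.55, 6.01 and 6.60. At week 2 1 liver was inside the control range and the other 2 were above it. The 3 livers of week 6 had 8.10, 8.12 and 8.22, above all other arrays. Week 8 livers had 6.36, 5.88 and 5.66, and week 10 livers 6.92, 7.21 and 5.88. At week 8, 2 of the 3 livers overlapped the controls, so that Tubb6 at week 8 averaged 5.96 ± 0.36, against 5.51 ± 0.44 in control (SD, n = 3 each). The week 6 change was 2.65 (SE 0.512, adjusted p = 0.00695, limma), or 6.29-fold, while those of weeks 2, 4, 8 and 10 were 1.38, 0.87, 0.45 and 1.16 with adjusted p of 0.147, 0.443, 0.737 and 0.17.

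Tubb5, the common class I beta tubulin of dividing and resting cells, moved over a narrower range. Control livers had 9.24, 8.42 and 8.76. Week 2 livers had 10.11, 10.21 and 9.40, and week 4 livers 8.93, 9.09 and 10.26. At week 4, 2 livers were at control level and the third was as high as any liver of week 2. Week 6 livers had 10.68, 10.65 and 10.26, week 8 livers 10.01, 9.13 and 8.72, and week 10 livers 9.89, 10.24 and 9.16. All livers of week 6 were above all controls, while weeks 4, 8 and 10 each overlapped the controls. The change at week 6 was 1.65 (SE 0.467, adjusted p = 0.0417, limma), or 3.15-fold, and 1.10, 0.62, 0.48 and 0.96 at weeks 2, 4, 8 and 10 with adjusted p of 0.213, 0.587, 0.684 and 0.215.

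**Figure D1:**
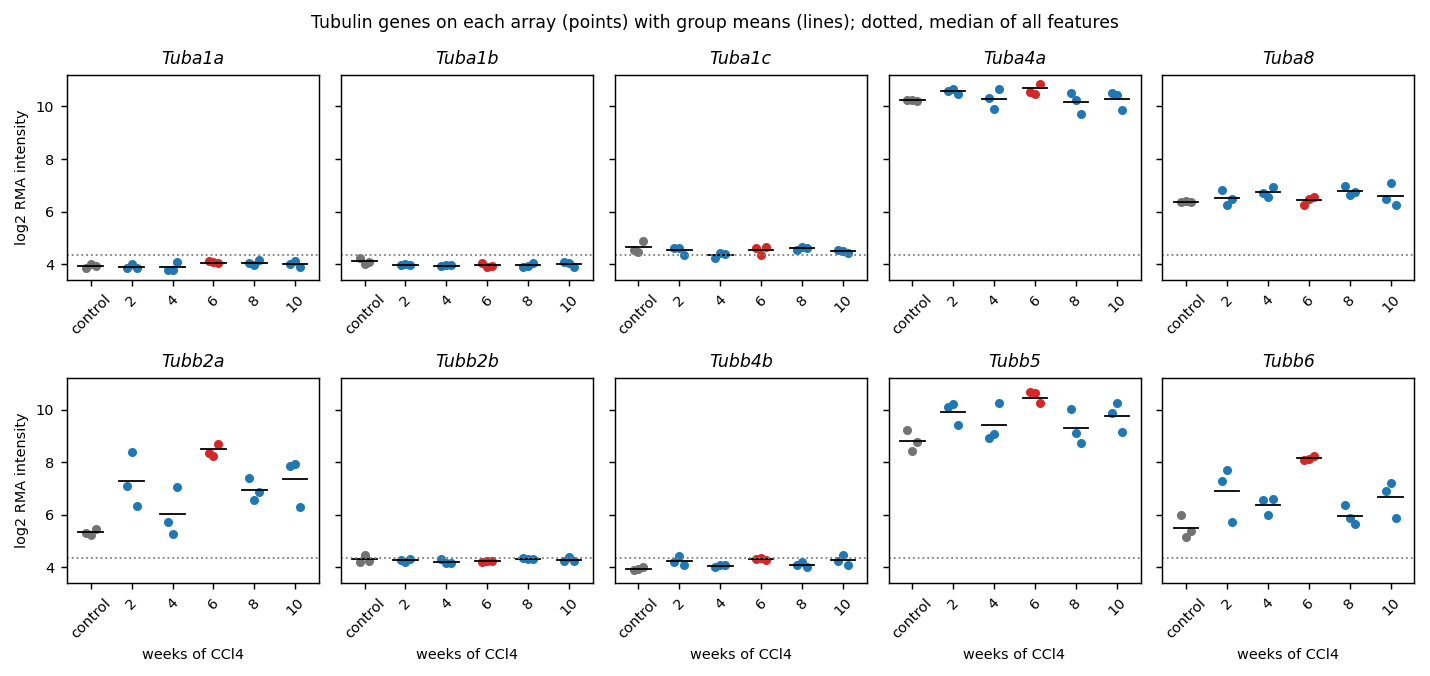
Each panel plots 1 tubulin gene, with log2 RMA intensity on the y axis and weeks of CCl4 on the x axis, control at the left. Points are arrays, horizontal lines group means with the near-identical arrays of week 6 counted once, and the dotted line the median of all features, 4.35. Tubb2a, Tubb5 and Tubb6 stand highest at week 6 (red), while Tuba1a, Tuba1b, Tuba1c, Tubb2b and Tubb4b lie close to the dotted line.

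At week 6, 3 of the 10 isotypes were called higher than control and 0 lower, where 2.98% of all tested genes were called higher and 4.84% in either direction. A call needed an adjusted p under 0.05 and a fold above 1.5. The 3 were Tubb2a, Tubb5 and Tubb6, all of them beta genes. Of the alpha genes only Tuba4a and Tuba8 had signal well above the median of all features. The median change of the 10 isotypes was 0.24, against -0.02 over all tested genes. None of the 3 calls held without replicate 3 of week 6, which leaves the mean of the 2 near-identical arrays as the only week 6 sample: adjusted p was then 0.0694 for Tubb2a, 0.125 for Tubb5 and 0.052 for Tubb6. The Tubb5 call was also lost without replicate 2 or 3 of control (adjusted p of 0.115 and 0.1), replicate 1 of week 2 (0.0541), replicate 2 of week 8 (0.0523) or replicate 1 of week 10 (0.0546).

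Over the 5 treated weeks together, 2 of the 10 isotypes were called higher than control, where 1.64% of all tested genes were called higher and 2.58% in either direction. Tubb2a rose by 1.89 (SE 0.44, adjusted p = 0.0187, limma), or 3.7-fold, and Tubb6 by 1.30 (SE 0.358, adjusted p = 0.0402), or 2.47-fold. Tubb5 was 0.96 higher (SE 0.326), with an adjusted p of 0.0914 that missed the threshold. Neither call held without any single control mouse, with adjusted p of 0.0743 to 0.081 for Tubb2a and 0.063 to 0.172 for Tubb6. The Tubb6 call was also lost without replicate 1 of week 2, 4, 8 or 10, replicate 3 of week 4 or 6, or replicate 2 of week 8 or 10, with adjusted p of 0.0501 to 0.0624.

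Single weeks other than week 6 gave no calls among the isotypes. The count was 0 of 10 at week 2 (1.41% of all genes called), week 4 (0.883%), week 8 (0.961%) and week 10 (2.07%) by limma. At an unadjusted p under 0.05 it was 4, 2, 2 and 4 of 10 at weeks 2, 4, 8 and 10, where 15.1%, 13.7%, 14.3% and 20.9% of all genes had such a p. The median change of the 10 isotypes was 0.22, 0.09, 0.14 and 0.15 at these weeks, beside medians of all genes between -0.011 and -0.005. Without replicate 3 of week 2, Tubb6 was called at week 2 (change 1.97, adjusted p = 0.0208).

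Week 6 was then set against the mean of the other treated weeks, to test the difference between weeks itself. Tubb6 was 1.69 higher at week 6 (SE 0.429, adjusted p = 0.14, limma), with a 95% interval of 0.76 to 2.62. Tubb2a was 1.59 higher (SE 0.527, adjusted p = 0.274) and Tubb5 0.87 higher (SE 0.391, adjusted p = 0.479). None of the 10 isotypes was called, where 0.195% of all genes were called, and 3 had an unadjusted p under 0.05, as had 10.1% of all genes. With the near-identical arrays of week 6 entered as separate samples, Tubb6 passed (change 1.67, adjusted p = 0.0243). Late against early injury, the mean of weeks 8 and 10 minus that of weeks 2 and 4, gave 0 of 10 calls beside 0.0303% of all genes, with 1 isotype and 10.8% of all genes at an unadjusted p under 0.05. There Tubb2a differed by 0.51 (95% interval -0.35 to 1.37), Tubb5 by -0.14 (-0.78 to 0.50) and Tubb6 by -0.32 (-1.02 to 0.38).

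**Figure D2:**
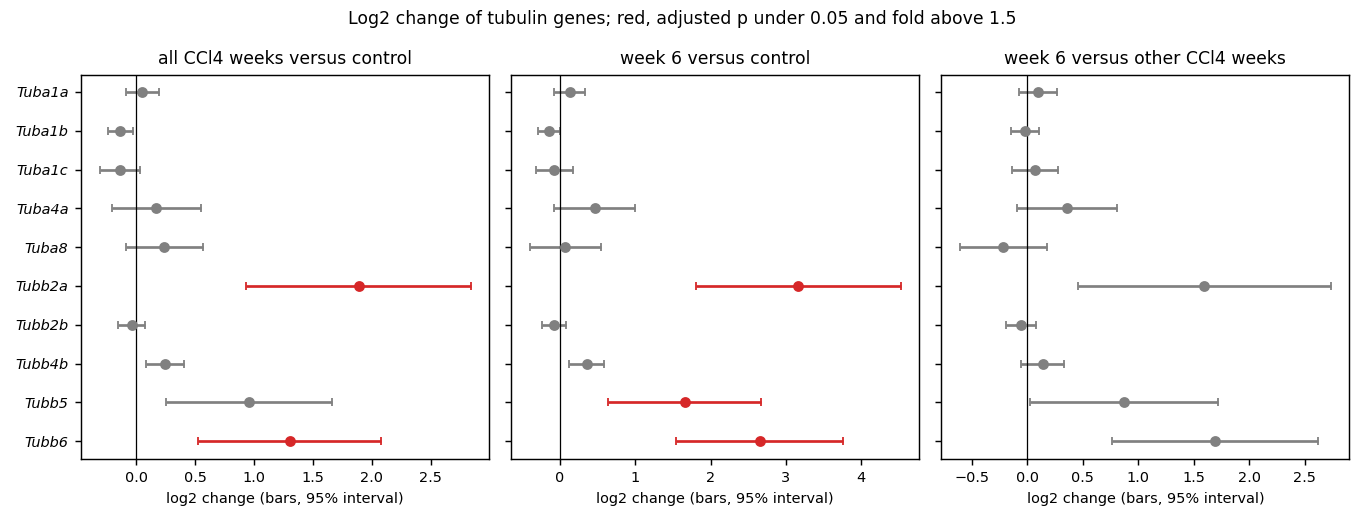
Log2 change of each isotype (x axis) in 3 comparisons, with points for the estimate and bars for its 95% interval from the limma fit. Red marks the calls: Tubb2a and Tubb6 over all CCl4 weeks, and Tubb2a, Tubb5 and Tubb6 at week 6. No isotype is called for week 6 against the other CCl4 weeks.

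Other cells moved in the same livers. In week 6 livers, 7 of 10 macrophage markers were called higher than control and 6 of 9 stellate cell markers, against 2.98% of all genes. Among them Cd68, a lysosomal protein of macrophages, rose by 2.53 (SE 0.417, adjusted p = 0.00313) and Col1a1, the chain of fibrillar collagen, by 4.83 (SE 0.483, adjusted p = 0.000168). The mean change over the macrophage list was 0.412 to 1.86 in CCl4 livers and -0.323 to 0.228 in control livers, and over the stellate cell list 0.701 to 2.31 in CCl4 livers and -0.149 to 0.206 in control livers. Both list means were thus above all controls in every CCl4 liver, though single markers were not, such as the macrophage gene Clec4f, at 7.84 in the lowest CCl4 liver and 8.37 in the highest control liver. Of 9 hepatocyte markers 1 was called lower at week 6, Cyp2e1, which fell by 1.12 (SE 0.288, adjusted p = 0.0283). The part of these cells in the tubulin values was not tested, and in bulk tissue fewer cells of a type and less RNA per cell cannot be told apart.

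Tubb4b, a class IV beta tubulin of cilia and many cell types, was dim but ordered. Control livers had 3.92, 3.95 and 4.00. CCl4 livers had 4.22, 4.45 and 4.08 at week 2, 4.02, 4.10 and 4.08 at week 4, 4.31, 4.37 and 4.29 at week 6, 4.10, 4.21 and 4.03 at week 8 and 4.26, 4.47 and 4.08 at week 10. All 15 CCl4 arrays were above the highest control, yet the distance was small, with the lowest at 4.02 against 4.00. The share of all genes with such a separation was not counted. The change over all treated weeks was 0.25 (SE 0.0749, adjusted p = 0.0597, limma) and at week 6 0.36 (SE 0.107, adjusted p = 0.0533), both above 0.05 after adjustment and under the fold threshold. Its values lay below the median of all features, 4.35, on 15 of 18 arrays.

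The remaining beta isotype, Tubb2b, which is best known from developing neurons, had 4.17 to 4.39 in CCl4 livers and 4.20 to 4.47 in control livers. No CCl4 array was above the highest control. Its week 6 change was -0.08 (95% interval -0.24 to 0.08).

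Of the alpha genes, the 2 with signal well above the median of all features gave no calls. Tuba4a, an alpha tubulin whose gene lacks the code for the terminal tyrosine, had nearly equal values in the 3 control livers, at 10.23, 10.24 and 10.22. CCl4 livers had 10.58, 10.68 and 10.47 at week 2, 10.33, 9.92 and 10.65 at week 4, 10.55, 10.49 and 10.86 at week 6, 10.53, 10.26 and 9.72 at week 8 and 10.52, 10.45 and 9.87 at week 10. Livers of weeks 2 and 6 were all above the controls, whereas weeks 4, 8 and 10 each had 1 liver below them. The week 6 change was 0.46 (SE 0.248, adjusted p = 0.296, limma) with an interval of -0.08 to 1.00.

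Tuba8, a divergent alpha isotype, spread over 6.24 to 7.10 in CCl4 livers and 6.37 to 6.39 in control livers. Of the CCl4 arrays 12 were above the highest control and the remaining 3 were below all controls. Its change over all treated weeks was 0.24 (95% interval -0.09 to 0.57). Week 6 averaged 6.45 ± 0.13 (SD, n = 2), against 6.38 ± 0.01 in control (SD, n = 3).

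Tuba1a, known from the developing brain, and the broadly expressed Tuba1b and Tuba1c gave no calls in any comparison. Tuba1a had 3.77 to 4.15 in CCl4 livers and 3.86 to 4.00 in control livers, and Tuba1b 3.88 to 4.07 in CCl4 livers and 4.00 to 4.25 in control livers. Tuba1c had 4.22 to 4.66 in CCl4 livers and 4.48 to 4.90 in control livers. The changes over all treated weeks were 0.05 for Tuba1a (95% interval -0.09 to 0.20), -0.13 for Tuba1b (-0.24 to -0.03) and -0.14 for Tuba1c (-0.31 to 0.04). These 3 genes and Tubb2b and Tubb4b gave signal near or below the median of all features, 4.35. That median is itself close to the lowest value on the arrays, 3.606. Tuba1a and Tuba1b were above the median on 0 arrays. So low a signal may hide a change. Whether a feature is dim or its transcript rare cannot be told apart from these values. A filter on dim features, at least 3 arrays above the 40th percentile of all values, kept 8 of the 10 isotypes and dropped Tuba1a and Tuba1b.

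To ask which isotypes followed the injury and which the cell cycle, 2 scores were formed for each liver. The cell cycle score was the mean log2 difference from the control mean over 31 measured genes, among them Mki67, Top2a, Ccna2, Cdk1 and Kif23. The injury score was the same over 13 measured genes, among them the annexins Anxa2 and Anxa5, the galectins Lgals1 and Lgals3, S100a6 and Vim. At week 6, 25 of the 31 cell cycle genes and 9 of the 13 injury genes were called higher than control, against 2.98% of all genes. At week 10 the counts were 0 and 4, where 2.07% of all genes were called in either direction. The cell cycle score was 0.289 to 1.3 at week 2, 0.104 to 1.05 at week 4, 1.89 to 2.19 at week 6, 0.179 to 1.07 at week 8 and 0.0386 to 1.26 at week 10. The injury score was 0.663 to 1.2 at week 2, 0.719 to 1.22 at week 4, 1.16 to 2.22 at week 6, 0.579 to 0.94 at week 8 and 0.715 to 1.12 at week 10. Outside week 6, then, mice of the same week differed in the cell cycle score more than the weeks differed from each other, while every CCl4 liver had an injury score above all controls.

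Relations were taken over the 12 livers of weeks 2, 4, 8 and 10, since the control livers stand apart on the injury score and the week 6 livers on the cell cycle score. On the cell cycle score the controls, at up to 0.016, adjoin the lowest of the 12. These 12 livers fell into 2 sets of 6 on the cell cycle score, at 0.756 to 1.3 and at 0.0386 to 0.289, with no liver between. The same sets did not overlap on the injury score either, at 0.866 to 1.22 and at 0.579 to 0.808. Each of the 4 weeks had livers in both sets, with 2 livers of weeks 2 and 10 and 1 of weeks 4 and 8 in the higher one. The slope of each isotype on each score over the 12 livers was fitted in limma, 20 slopes in all, and correlations are given within the sets. The gap bears on such a slope as it does on a correlation over all 12 livers. Its p-value therefore largely reflects the difference between the 2 sets and does not show a graded relation.

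Tubb5, Tubb6 and Tubb2a rose along the cell cycle score. Tubb5 had 0.55 log2 units per SD of the score (SE 0.0537), with an adjusted p of 0.000327 over all tested genes in limma. Tubb6 had 0.58 per SD (SE 0.106, adjusted p = 0.0235) and Tubb2a 0.76 per SD (SE 0.15, adjusted p = 0.0333), so that 3 of 10 isotypes passed, beside 1.17% of all genes. Without the 2 livers farthest from the median score Tubb5 still passed (adjusted p = 0.00728), while Tubb6 had 0.271 and Tubb2a 0.341. With DNA replication genes as the score, adjusted p was 0.0163 for Tubb5, 0.251 for Tubb6 and 0.123 for Tubb2a. On ranks none of the 3 passed, with an adjusted p of 0.437 for each, and neither did any other gene. Tubb5 was the only one to pass without replicate 2 of week 2, 8 or 10 or replicate 3 of week 10, in turn, with adjusted p of 0.0501 to 0.105 for Tubb2a and 0.0514 to 0.0752 for Tubb6. Tubb2a alone was lost without replicate 3 of week 2, replicate 1 or 2 of week 4, or replicate 1 of week 8, with adjusted p of 0.0572 to 0.0636.

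Within a set of 6 livers none of the slopes passed. Within the 6 livers of high score Tubb5 had r = 0.80 with the cell cycle score (rho = 0.37, exact permutation p = 0.0639, n = 6), and within the 6 of low score r = 0.17 (rho = 0.14, exact permutation p = 0.764, n = 6). Tubb6 had r = 0.50 (rho = 0.71, exact permutation p = 0.317) in the high set and 0.02 (rho = -0.14, exact permutation p = 0.979) in the low set. Tubb2a had r = 0.34 (rho = 0.60, exact permutation p = 0.518) in the high set and 0.22 (rho = 0.20, exact permutation p = 0.689) in the low set. In limma 0 of 10 isotypes passed within either set for either score, as did 0 of the 23111 genes, and 1 isotype had an unadjusted p under 0.05 in each of these fits, beside 4.15% to 6.75% of all genes. The slopes over 12 livers therefore rest on both sets together, and 6 livers leave a relation within a set hard to detect.

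Tuba4a was the one alpha isotype near the threshold. Its slope on the cell cycle score was 0.26 per SD (SE 0.0577), with an adjusted p of 0.0597 in limma. With 1 liver left out, it was 0.0377 without replicate 3 of week 2 and 0.0605 to 0.145 without any other. It was 0.0291 with week 6 included and 0.183 without the 2 livers farthest from the median score. With DNA replication genes as the score it was 0.131, with week means subtracted 0.132, and on ranks 0.437. Within the low set it had r = 0.74 (rho = 0.83, exact permutation p = 0.1, n = 6) and within the high set 0.22 (rho = 0.26, exact permutation p = 0.671, n = 6). The slope of Tubb4b was 0.10 (SE 0.0333, adjusted p = 0.219), and the other 5 isotypes had adjusted p between 0.576 and 0.995.

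Along the injury score none of the 10 isotypes passed in limma, beside 0.281% of all genes, and 5 had an unadjusted p under 0.05, as had 11.7% of all genes. The slope per SD was 0.47 for Tubb5 (SE 0.0963, adjusted p = 0.0606), 0.50 for Tubb6 (SE 0.134, adjusted p = 0.138) and 0.67 for Tubb2a (SE 0.183, adjusted p = 0.148). Tubb5 passed without replicate 3 of week 8 (adjusted p = 0.0454), but not without any other single liver (0.0672 to 0.154). Without the 2 livers farthest from the median score it had 0.178. Within the high set Tubb5 had r = 0.89 with the injury score (rho = 0.89, exact permutation p = 0.0333, n = 6), and within the low set -0.67 (rho = -0.77, exact permutation p = 0.125, n = 6). With 20 relations in each set, these p are not adjusted. The difference between the slopes on the 2 scores was not tested.

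**Figure D3:**
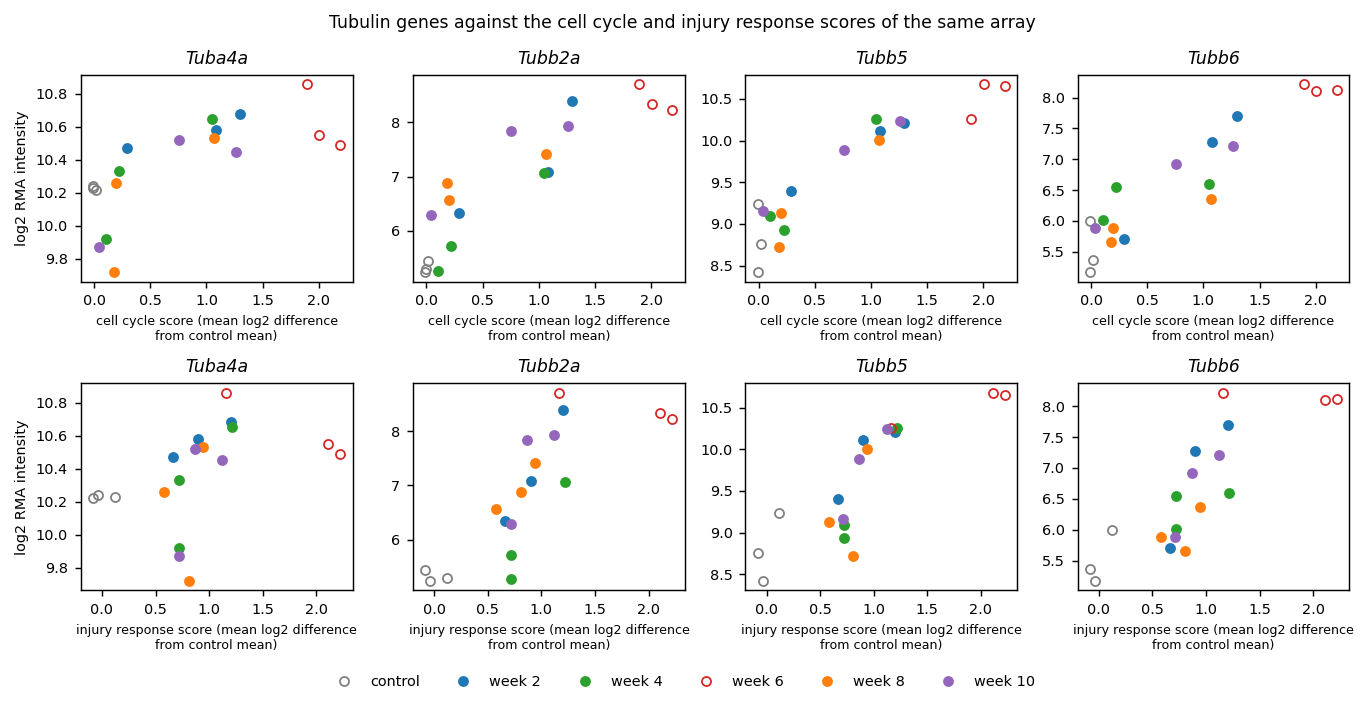
Log2 RMA intensity of Tuba4a, Tubb2a, Tubb5 and Tubb6 (y axis) against the cell cycle score (top row) and the injury response score (bottom row) of the same array (x axis, mean log2 difference from the control mean). Filled points are the 12 livers used for the slopes, and open points the livers of control and week 6, which were left out. On the cell cycle score the filled points form 2 sets of 6, at 0.756 to 1.3 and at 0.0386 to 0.289.

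Mice of the same week were also compared with each other. In each of the 4 weeks the same liver was highest on both scores, so the scores do not give separate counts here. In 4 of 4 weeks that liver also had the highest Tubb2a, Tubb5 and Tubb6 of its week. At week 10 it was replicate 2, which stood apart in some pancreas genes. For Tuba1a, Tuba4a and Tuba8 this held in 3 of 4 weeks, for Tuba1b, Tubb2b and Tubb4b in 2 and for Tuba1c in 1. The share over all genes was not counted. When values were permuted within weeks, over 1296 orders, the exact permutation p with the cell cycle score was 0.00154 for Tubb2a, 0.00231 for Tubb5, 0.000772 for Tubb6 and 0.0162 for Tuba4a. With the injury score it was 0.00154 for Tubb2a, 0.0054 for Tubb5, 0.0216 for Tubb6, 0.0108 for Tuba1a and 0.091 for Tuba4a. The p of these 20 relations are not adjusted. In limma over all genes with the week as a term, Tubb2a passed with the cell cycle score (adjusted p = 0.0244) and the injury score (0.0357), Tubb5 with the cell cycle score (0.00358) but not the injury score (0.101), and Tubb6 with neither (0.0546 and 0.205).

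The 2 scores could not be parted in these livers, since the same 6 were higher on both. In a limma fit with both scores as terms, 0 of 10 isotypes passed for the injury score (0% of all genes called) and 0 of 10 for the cell cycle score (0.0433% of all genes called). At an unadjusted p under 0.05 the counts were 0 and 4 of 10 isotypes, beside 5.13% and 5.33% of all genes for the injury and cell cycle scores. The cell cycle slope per SD at a given injury score was 0.57 for Tubb5 (SE 0.117, adjusted p = 0.328), 0.40 for Tuba4a (adjusted p = 0.718), 0.75 for Tubb2a (adjusted p = 0.923) and 0.58 for Tubb6 (adjusted p = 0.894). The injury slope at a given cell cycle score was -0.03 for Tubb5 (SE 0.117), -0.17 for Tuba4a (SE 0.115), 0.02 for Tubb2a (SE 0.328) and -0.01 for Tubb6 (SE 0.231). With SEs of this size a small slope does not show the absence of a relation.

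Over all 17 samples, control and week 6 included, the genes most like each isotype were found by Pearson r. Tubb5 was most like Mki67 (r = 0.950), Rbpms (0.949) and Top2a (0.945). Tubb6 was most like Ect2 (0.937), Tacc3 (0.935) and Kif23 (0.934), and Tubb2a most like Oip5 (0.946), Mad2l1 (0.942) and Calu (0.941). Tuba4a was less like any gene, with Selenoh at 0.842, Pa2g4 at 0.803 and Ccl9 at 0.798. The number of genes with r over 0.9 was 28 for Tubb2a, 23 for Tubb5 and 37 for Tubb6, 1 for Tuba1a and 0 for the other 6 isotypes. These r share the groups of the design, so they are given without a test.

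Lists of other microtubule genes were read at week 6 beside the 4.84% of all genes called in either direction. Of 10 other tubulin genes, among them gamma tubulin Tubg1, the nucleator at the centrosome, and the neuronal Tubb3, 0 were called in week 6 livers, with a median change of -0.01 beside -0.02 over all genes. Of 21 genes for tubulin folding, 1 was called, the prefoldin subunit Pfdn2, which fell by 0.60 (SE 0.0858, adjusted p = 0.00145), while the list had a median of 0.07. Of 18 measured genes for tubulin modification 0 were called at week 6 (median -0.09), and Ttll1, a polyglutamylase, rose by 0.69 at week 10 (adjusted p = 0.0492). Of 26 microtubule-binding proteins 1 was called, the microtubule polymerase Ckap5, which rose by 1.43 (SE 0.202, adjusted p = 0.0013) at week 6 and by 0.79 (adjusted p = 0.0278) at week 10. All adjusted p are from limma over all tested genes.

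In the actin and keratin list, of 12 measured genes 6 were called higher at week 6, with a median of 1.09, against 2.98% of all genes. Tagln2, an actin-binding protein, rose by 2.40 (SE 0.467, adjusted p = 0.00725), Msn, which ties actin to the membrane, by 1.79 (SE 0.277, adjusted p = 0.00226) and Flna, which crosslinks actin, by 1.39 (SE 0.236, adjusted p = 0.00361). Tmsb4x, an actin monomer binder, was called at every week, with a rise of 0.74 at week 8 (adjusted p = 0.0202). It was the 1 call of the 12 genes at week 8, where 0.961% of all genes were called. No isotype of tubulin was called there, though the estimate for Tubb2a was larger (1.62, SE 0.563, adjusted p = 0.188, limma).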

How the data were processed

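RNA of 18 livers was hybridised to Affymetrix Mouse Gene 2.0 ST arrays. The authors preprocessed the arrays with RMA in affyPLM and a Brainarray chip definition (version 22), so the deposited values are log2 intensities, 1 per Entrez gene, and 17 of 18 arrays share 1 set of sorted values. RMA puts all arrays on 1 scale, so a shift of total RNA per liver is not seen. Of 23748 features 637 carried no gene name and were left out, and no background correction or normalization was repeated. The files give no detection call, and the sources used here do not state how many probes make up a feature, so the number of arrays limits the precision.

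The near-identical arrays of week 6 were averaged. The comparisons used limma 3.58.1 under R 4.3.3 (lmFit, eBayes, 1 mean per group, prior degrees of freedom 1.79), with Benjamini-Hochberg adjustment over 23111 genes. A call needed an adjusted p under 0.05 and a fold above 1.5. Each score was fitted as a slope in limma in place of the planned correlation over 12 livers, with adjustment over all genes. The slope meets the same gap between the 2 sets of livers. Correlations within sets and within weeks had two-sided exact permutation tests in Python 3.11.15. The scripts were tested on simulated data. The isotypes, the gene lists and the tests were chosen with earlier results of these data known. The text names all 10 isotypes, the 3 list members with the largest called changes at week 6, and the 3 genes most like an isotype. Ttll1 and Tmsb4x, and the genes that illustrate a list or a marker, were chosen after their values were seen. Alternatives were other fold thresholds, treat, separate arrays, groups fitted alone, limma-trend, array weights, a replicate block, quantile normalization, median centring, a filter on low values, unnamed features, adjustment over 5 weeks, and each array left out.

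Mice of equal replicate number were not treated as pairs. Over the 3 numbers the correlation of deviations from the group means had medians between -0.0758 and 0.0162. Single pairs of groups lay between -0.424 and 0.495, so a link between some groups is not excluded.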

Additional observations from a re-analysis of the deposited data

Results flagged for a closer look

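Tubb2b lay above the control mean on every array of week 8 and below it on every array of week 6. The mean of week 8 was 0.12 higher than that of week 6 on the log2 scale. Arrays had 4.33 to 4.35 at week 8 and 4.19 to 4.25 at week 6, beside 4.20 to 4.47 in control livers, a signal near the median of all features. The difference was not tested.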

How the results depend on the processing

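No called change and no called slope turned its sign under any alternative. Of the 80 log2 changes, those called were 3 at week 6 and 2 over all CCl4 weeks. Of 2434 log2 changes under alternatives, 2395 kept their side of the threshold, 28 were lost and 11 gained. All 28 losses fell on the called changes, and most of the 2395 had no call to lose. Of the 20 slopes on 1 score, 3 were called, all with the cell cycle score. The 350 alternatives for these slopes leave out ranks. Of them, 291 kept their call or, uncalled in both fits, moved by less than their SE. Another 31, uncalled in both fits, moved by more than their SE. A further 23 were lost and 5 gained, and all 23 losses fell on the 3 called slopes. The numbers kept therefore do not measure how stable the calls were. Of 280 slopes with both scores 273 moved by less than their SE.

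With treat at a fold of 1.5, week 6 had 0 calls among the isotypes and all CCl4 weeks 0. Beside this count and the isotype counts that follow, the share of all genes called is not given. These counts therefore do not show whether a loss or gain was particular to the tubulins or general to all genes. With 18 separate arrays, week 10 had 1 call (Tubb2a, adjusted p = 0.0455) and week 6 against the other weeks 1 (Tubb6, 0.0243). With array weights week 10 had 1 (Tubb2a, 0.027), with low values left out 1 (Tubb2a, 0.0338), and with groups fitted alone week 8 had 1 (Tubb2a, 0.0359). Adjusted over 5 weeks together, Tubb5 at week 6 had 0.0701 and 2 isotypes were called. With the replicate number as a block on 18 arrays, Tubb6 was called for week 6 against the other weeks (0.0221), as on 18 arrays without it, while Tubb2a at week 10 was not called with the block (0.0674); no other isotype count differed between these fits.

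Leaving out 1 mouse in turn gave 0 to 3 calls at week 6, 0 to 2 over all CCl4 weeks, 0 to 1 at week 2 and 0 to 1 at week 10. Tubb2a was called at week 10 without replicate 2 of week 2 (0.0368), replicate 3 of week 2 (0.0481), replicate 3 of week 4 (0.0371) or replicate 3 of week 10 (0.0285). Where replicate 3 of week 6 is left out, the lone sample is taken to vary as much as other groups do.

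With the cell cycle score, 3 isotypes passed, against 1 without the 2 farthest livers, 1 with DNA replication genes alone, 2 with week means subtracted (Tubb6 lost, 0.0546), 4 with week 6 included (Tuba4a gained, 0.0291), 0 on ranks, 0 within the 6 livers of high score, 0 within the 6 of low score (a split chosen after seeing the data), and 1 to 3 with 1 liver left out. With the injury score 0 passed, against 1 with week 6 included (Tubb5, 0.0379), 1 with week means subtracted (Tubb2a, 0.0357), and 0 to 1 with 1 liver left out. The cause of these differences was not tested.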
